A study of Arabidopsis thaliana with 24 samples.

Results

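The major light-harvesting antenna of photosystem II (LHCII) is encoded in Arabidopsis thaliana by 9 nuclear genes, LHCB1.1 to LHCB1.5, LHCB2.1 to LHCB2.3 and LHCB3, and these were followed through 8 groups of seedlings, wild type or mutated in genes of the NuB4 complex. The members were taken by gene identifier, 9 of the 32548 genes listed in each of 2 tables, and were selected on earlier results of these data, in which their 12-day values were higher in nasp and lower in both nasp combinations than in wild type. At 12 days the groups were nasp, hag2 nasp, msi2 msi3 nasp, hag2 msi2 msi3 and wild type (Col-0), from plates with MS medium. At 20 days they were hag2 msi2 msi3, msi2 msi3 and wild type, from a growth chamber. Each group had 3 libraries of total RNA from whole seedlings, 24 in all, and the plants were kept at 22 °C under days of 16 h light and 8 h dark. All mutants are given in the labels as homozygous and by gene alone, and no allele, line number or hour of harvest was given in the sources used here. Nothing there says that the 3 libraries of a group came from separate plantings, so the p-values speak only for the spread among these libraries, which may be technical.

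HAG2 encodes a histone acetyltransferase, MSI2 and MSI3 encode histone-binding WD40 proteins and NASP encodes a histone H3 chaperone, and the transcripts of the mutated genes were read first. NASP averaged 154 ± 40.2 in nasp libraries, 133 ± 16.2 in those of hag2 nasp and 139 ± 9.97 in those of msi2 msi3 nasp, against 512 ± 31.0 in wild type (normalised values, mean ± SD, n = 3 each). HAG2 averaged 73.2 ± 14.7 in the 12-day libraries labelled hag2 msi2 msi3 and 26.4 ± 8.13 in hag2 nasp, against 410 ± 32.4 in wild type. MSI2 averaged 214 ± 14.1 in msi2 msi3 nasp, against 472 ± 10.9 in wild type, and was the exception in the group labelled hag2 msi2 msi3. It averaged 439 ± 45.3 in the libraries labelled hag2 msi2 msi3 at 12 days, against the same 472 ± 10.9 in wild type, and 1359 ± 40.0 at 20 days, against 1655 ± 2.11 in wild type. Neither difference passed the test (limma, adjusted p = 0.578 at 12 days and 0.0692 at 20 days). Of the 4 NuB4 genes, 2 were called lower and none higher in that group at each age. The lowest log2 differences were -2.60 at 12 days and -2.82 at 20 days. Because of MSI2, every direction drawn from that group is drawn from libraries that carry the label.

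LHCII proteins bind chlorophyll a and most of the chlorophyll b of the thylakoid membrane and pass the absorbed energy to photosystem II. LHCB1, LHCB2 and LHCB3 proteins form trimers, in which LHCB1 is the most abundant subunit, and phosphorylation of LHCB1 and above all LHCB2 by the kinase STN7 moves part of the antenna towards photosystem I. Transcription of the genes is induced by light through phytochromes and cryptochromes, is gated by the circadian clock, depends on the GLK transcription factors and falls when plastid signals report damage.

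LHCB1.1 (AT1G29920, chr1:10474656-10475969), LHCB1.2 (AT1G29910, chr1:10472280-10473502) and LHCB1.3 (AT1G29930, chr1:10477885-10479114) lie side by side, each as a single exon. LHCB1.4 (AT2G34430, chr2:14524607-14525918) and LHCB1.5 (AT2G34420, chr2:14522524-14523568) form a head-to-head pair of 1-exon genes. LHCB2.1 (AT2G05100, chr2:1822990-1824480) and LHCB2.2 (AT2G05070, chr2:1799234-1800472) have 2 exons each, as has LHCB2.3 (AT3G27690, chr3:10255906-10257489), and LHCB3 (AT5G54270, chr5:22038165-22039568) has 3. All positions are those of TAIR10.1. The coding sequences of LHCB1.1 and LHCB1.3 were 96.14% identical and those of LHCB2.1 and LHCB2.2 96.62%, whereas LHCB2.1 and LHCB2.3 shared 85.84%. Between 10.6% and 28.2% of the 50-base windows of the LHCB1 genes, LHCB2.1 and LHCB2.2 occurred letter for letter in another member, and no window of LHCB2.3 or LHCB3 did. How reads that match several copies were counted was not given. In that respect values of the LHCB1 genes, LHCB2.1 and LHCB2.2 are less certain than those of LHCB2.3 and LHCB3. Exons of another gene, however, share 40.614% of the exon bases of LHCB2.3, 14.976% of those of LHCB3 and 8.78% of those of LHCB1.3. How reads from such shared bases were counted was not given either, so the levels of these genes carry that limit.

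The 250 bases before the annotated start of 6 members are shown, the 4 that were lower in the libraries labelled hag2 msi2 msi3 at 12 days (LHCB1.4, LHCB2.1, LHCB2.2 and LHCB2.3), LHCB1.3, which was not, and LHCB1.1, which differed most between the nasp combinations. Each is written 5′ to 3′ on the strand of its gene, from the RefSeq TAIR10.1 genome. Capitals mark matches to 5 motifs searched on both strands. They are AANAATCT (a loose form, with N for any base, of the site of the clock factor CCA1), AAAATATCT (evening element), GATAAG (I-box), CACGTG (G-box) and CCAATC (linked to GLK target genes).
LHCB1.1: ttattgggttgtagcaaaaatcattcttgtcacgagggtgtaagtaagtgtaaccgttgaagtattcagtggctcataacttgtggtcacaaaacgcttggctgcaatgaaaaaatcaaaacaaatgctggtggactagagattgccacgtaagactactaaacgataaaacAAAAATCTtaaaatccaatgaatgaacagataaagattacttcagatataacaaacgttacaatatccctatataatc
LHCB1.3: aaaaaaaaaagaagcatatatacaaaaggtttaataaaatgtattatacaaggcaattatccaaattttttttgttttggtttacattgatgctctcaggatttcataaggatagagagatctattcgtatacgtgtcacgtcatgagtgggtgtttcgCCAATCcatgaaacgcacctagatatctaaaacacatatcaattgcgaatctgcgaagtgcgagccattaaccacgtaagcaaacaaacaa
LHCB1.4: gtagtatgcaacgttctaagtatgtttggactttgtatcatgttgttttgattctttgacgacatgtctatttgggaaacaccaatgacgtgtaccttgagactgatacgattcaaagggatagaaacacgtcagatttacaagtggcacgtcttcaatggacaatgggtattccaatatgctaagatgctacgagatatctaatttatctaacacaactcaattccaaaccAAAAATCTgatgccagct
LHCB2.1: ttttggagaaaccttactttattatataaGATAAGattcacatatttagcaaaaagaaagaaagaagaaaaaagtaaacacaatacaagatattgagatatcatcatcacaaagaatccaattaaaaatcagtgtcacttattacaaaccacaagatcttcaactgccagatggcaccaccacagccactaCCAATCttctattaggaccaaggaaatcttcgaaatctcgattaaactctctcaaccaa
LHCB2.2: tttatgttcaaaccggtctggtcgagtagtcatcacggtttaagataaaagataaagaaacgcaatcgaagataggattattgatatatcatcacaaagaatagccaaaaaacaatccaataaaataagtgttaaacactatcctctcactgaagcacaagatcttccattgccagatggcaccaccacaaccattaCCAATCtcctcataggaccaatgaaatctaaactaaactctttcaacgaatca
LHCB2.3: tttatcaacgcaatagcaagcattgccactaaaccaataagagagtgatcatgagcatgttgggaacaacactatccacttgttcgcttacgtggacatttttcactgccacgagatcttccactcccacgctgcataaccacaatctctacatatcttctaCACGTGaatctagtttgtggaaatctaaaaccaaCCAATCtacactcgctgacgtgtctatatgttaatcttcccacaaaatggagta
These windows are chr1:10475970-10476219 (minus strand), chr1:10477635-10477884 (plus), chr2:14524357-14524606 (plus), chr2:1824481-1824730 (minus), chr2:1800473-1800722 (minus) and chr3:10255656-10255905 (plus). CCAATC stood in 5 of the 9 member promoters (LHCB1.3, LHCB1.5 and all 3 LHCB2 genes), against 10.228% of 27443 promoters of the same length. In the LHCB2 promoters it lay at nearly the same place, its first base 59, 53 and 54 bases before the start in LHCB2.1, LHCB2.2 and LHCB2.3. AANAATCT stood in LHCB1.1, LHCB1.4 and LHCB1.5, against 13.366% of all promoters, CACGTG in LHCB2.3 (6.486%) and GATAAG in LHCB2.1 (12.295%). AAAATATCT (2.361%) was in none of the 9, and LHCB1.2 and LHCB3 held no match to any of the 5. No 2 matches overlapped. A match describes the letters of the window and is not evidence of binding.

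LHCB1.5 was listed at 0 in all 24 libraries. Its whole length of 1045 bases lies within the annotated antisense gene AT2G08665, which was listed at 0 as well. Of the 368 protein-coding genes whose exon bases all lie in exons of another gene, 349 (94.84%) were listed at 0 throughout, compared with 1611 of the 19821 genes (8.128%) that share no exon base. The listed 0 is therefore given here without a statement on the transcript, and all values below are of the other 8 members. All 8 passed the filter on low values in both tables.

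By level per kilobase of transcript, the first and last places were the same in each group, and places between them changed. LHCB1.3 was first and LHCB2.3 last in all 8 groups. The place of LHCB2.3 is given with the limit that 40.614% of its exon bases are shared with another gene. In 12-day wild type LHCB1.3 stood at 179703 ± 10512 normalised reads per kilobase, LHCB3 at 48422 ± 3071.4 and LHCB1.2 at 42564 ± 3248 (SD, n = 3), and the ranges of LHCB3 and LHCB1.2 met. LHCB1.4 followed at 20188, then LHCB1.1 at 14755, LHCB2.2 at 12764 and LHCB2.1 at 12155, the last 3 with ranges that met those of their neighbours, and LHCB2.3 at 3803. LHCB1.3 supplied 53.1% of the summed LHCII values in that group and was the second highest gene of the table in each of its libraries. LHCB1.1 and LHCB2.1 changed places most among the 12-day groups, each between 4th and 7th. The level of LHCB1.1 per kilobase was 4th of 8 in nasp, 7th for hag2 nasp, 6th for msi2 msi3 nasp, 5th for hag2 msi2 msi3 and 5th for wild type at 12 days, and 3rd in all 3 groups at 20 days. The tables of the 2 ages were normalised apart and differ in growth and in reads, so no level is compared across them.

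In nasp and in its combinations the direction was part of how the members were chosen, so the following values are a description without a test. Summed over the members, LHCII values made up 2.99% ± 0.171 of all values in nasp, 0.637% ± 0.0135 in hag2 nasp and 0.666% ± 0.0696 in the msi2 msi3 nasp libraries, against 2.07% ± 0.155 in wild type (SD, n = 3 each). All 8 members were higher in every nasp library than in any wild-type library, a pattern that 13.0% of the 24305 genes tested showed, and all 8 were lower in every hag2 nasp library (35.3% of genes) and in every msi2 msi3 nasp library (35.1%). By the test applied to all genes, 3.89% were called in nasp, 66.3% in hag2 nasp and 66.8% in the msi2 msi3 nasp libraries.

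**Figure D1:**
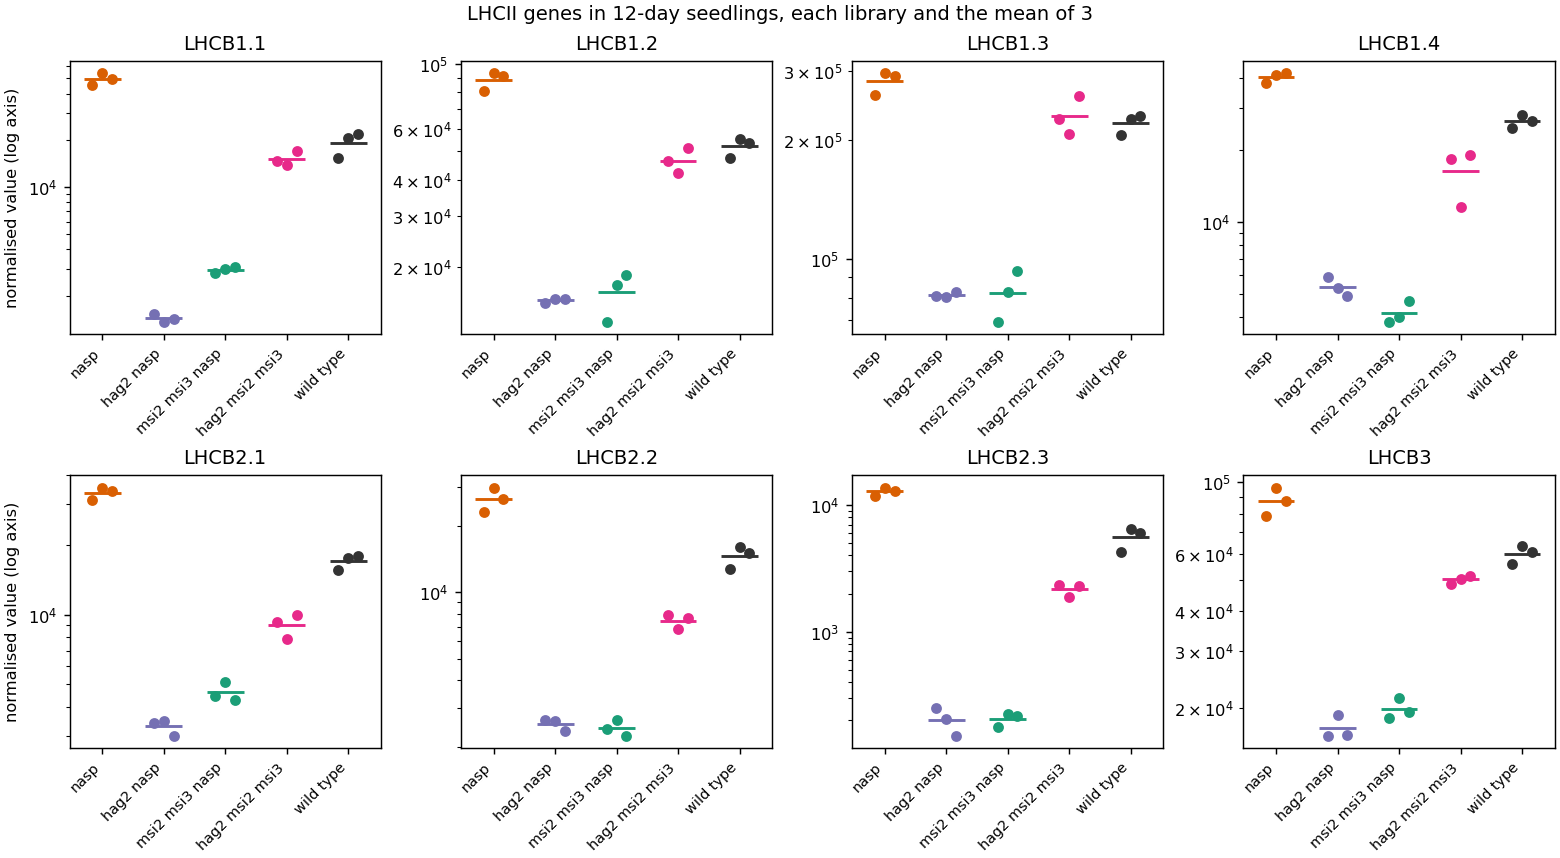
Normalised values of the 8 measured LHCII genes in the 12-day libraries, on a log axis for each gene, with 3 points for the libraries of a group and a line for their mean. Every gene is highest in nasp and lowest in hag2 nasp or msi2 msi3 nasp, and the LHCB2 genes and LHCB1.4 lie lower in the libraries labelled hag2 msi2 msi3 than in wild type.

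LHCB2.3 spanned the widest range of the 8. Its libraries held 11759, 13707 and 12948 in nasp libraries, 251, 204 and 151 in those of hag2 nasp and 179, 223 and 217 in those of msi2 msi3 nasp, against 4272, 6487 and 5955 in wild type. It thus stood at 3.62% of the wild-type level in hag2 nasp and 3.76% for msi2 msi3 nasp, both from the fit, and at 233% in nasp. Among all genes of a library its rank was between 134 and 153 in nasp, between 11606 and 13767 in hag2 nasp and between 377 and 675 in wild type.

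LHCB1.1, the gene long used as the CAB2 reporter of light and clock control, came next. It held 45484, 53827 and 49812 in nasp libraries, 1543, 1370 and 1425 in those of hag2 nasp and 2825, 2972 and 3055 in those of msi2 msi3 nasp, against 15525, 20638 and 21999 in wild type. The fitted log2 differences of LHCB1.1 from wild type were 1.37 ± 0.11 in nasp libraries, -3.73 ± 0.11 in those of hag2 nasp and -2.70 ± 0.11 in those of msi2 msi3 nasp (± SE). No library of one of these 4 groups overlapped another group. With LHCB1.1 to LHCB1.3 summed into 1 feature, the differences were 0.5253, -1.575 and -1.54 in the same order, closer to 0 than the values of LHCB1.1 alone. LHCB1.3 made up most of that sum in each of these groups.

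LHCB1.3, the most abundant member, moved least. It held 261453, 295546 and 291985 in nasp libraries, 80792, 80153 and 82854 in those of hag2 nasp and 69515, 82657 and 93593 in those of msi2 msi3 nasp, against 206216, 226871 and 230017 in wild type. The fitted log2 differences from wild type were 0.36 ± 0.15 in nasp libraries, -1.44 ± 0.15 in those of hag2 nasp and -1.44 ± 0.15 in those of msi2 msi3 nasp. Under quantile normalization the nasp difference was 0, since LHCB1.3 held the same rank in both groups. The remaining 5 members lay between these, at 145% to 197% of wild type in nasp, at 17.5% to 29.5% in hag2 nasp and at 15.7% to 33.1% in msi2 msi3 nasp.

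The make-up of the antenna transcripts shifted with their sum. The 3 LHCB2 genes together gave 11.7% ± 0.231 of LHCII values in nasp, 4.76% ± 0.350 in hag2 nasp and 5.53% ± 0.805 in the msi2 msi3 nasp libraries, against 8.93% ± 0.367 in wild type. LHCB1.3 alone gave 45.5% in nasp libraries, 64.1% in those of hag2 nasp and 61.7% in those of msi2 msi3 nasp, against 53.1% in wild type. The share of LHCB3, a subunit of the moderately bound trimers, stayed between 13.7% and 15.1% in the group means of these 4 groups.

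**Figure D2:**
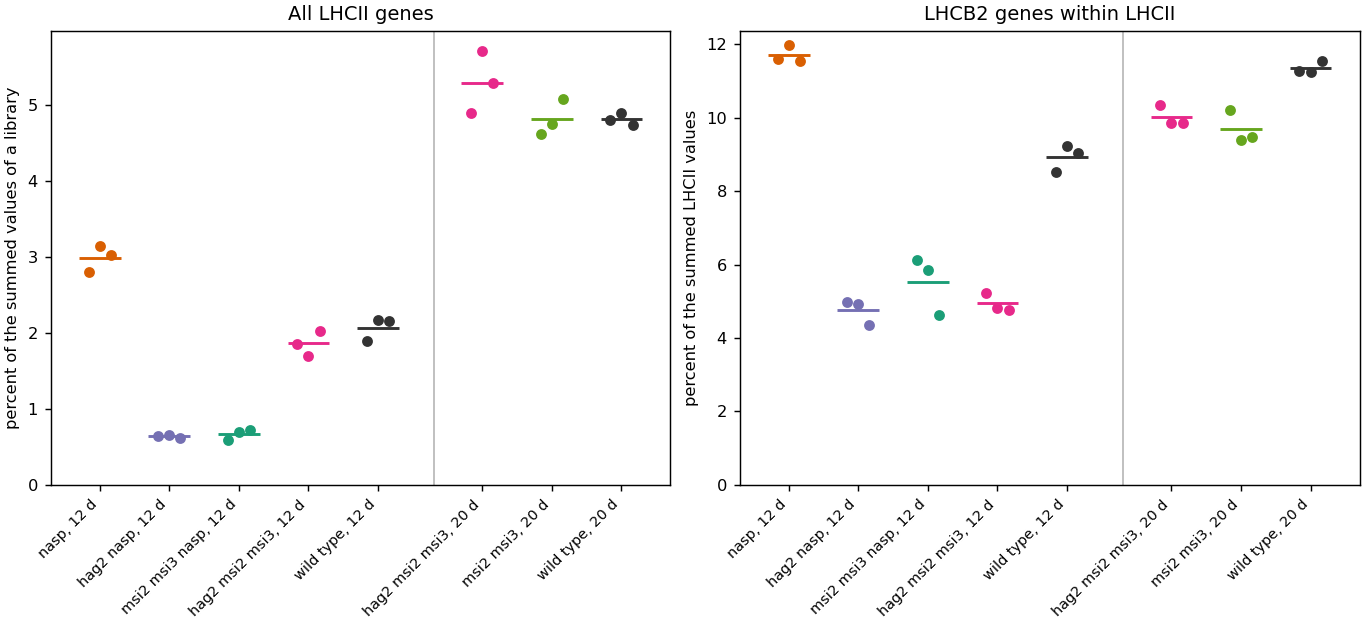
The left panel gives the summed LHCII values as a percent of all values of a library, and the right panel gives the LHCB2 genes as a percent of the summed LHCII values, with 3 libraries and their mean for each group at 12 and 20 days. The LHCB2 share is 4.94% in the 12-day libraries labelled hag2 msi2 msi3, between those of the 2 nasp combinations (4.76% and 5.53%), although the LHCII sum there (1.86%) lies near that of wild type (2.07%).

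In whole seedlings, fewer cells of a type and less RNA per cell cannot be told apart. The leaf mesophyll markers summed to 678940 to 760290 in nasp libraries, 263480 to 285180 in those of hag2 nasp and 280980 to 328120 in those of msi2 msi3 nasp, against 589800 to 647280 in wild type. The 16 root markers summed to 3984 to 4110 in nasp libraries, 2048 to 2178 in those of hag2 nasp and 1769 to 1911 in those of msi2 msi3 nasp, against 3671 to 3887 in wild type, and none of either list was at 0 in all libraries of a 12-day group. All 11 mesophyll markers were called lower in both combinations, with log2 medians of -1.04 in hag2 nasp and -0.81 in the msi2 msi3 nasp libraries. Of the 16 root markers, 15 were called lower and 1 higher in each. The log2 medians of the root markers were -1.25 in hag2 nasp and -1.87 in the msi2 msi3 nasp libraries. The medians of the 8 LHCII members were -2.34 for hag2 nasp and -2.23 for msi2 msi3 nasp, and the medians of all genes tested were 0.00 in both. The part of organ make-up in the LHCII values was not tested.

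The libraries labelled hag2 msi2 msi3 at 12 days were not used in choosing the members, though the wild-type libraries they are set against were. There 4 of the 8 tested members fell and none rose, against 4.04% of all genes called in either direction and 1.96% called lower (limma, Benjamini-Hochberg adjusted p below 0.05 over 24305 genes). The 4 were LHCB1.4 and all 3 LHCB2 genes. LHCB1.3, LHCB1.2, LHCB1.1 and LHCB3 did not pass the test. The median over the 8 was -0.53 on the log2 scale, against 0.00 over all genes tested.

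LHCB2.3 held 2339, 1878 and 2313 in the libraries labelled hag2 msi2 msi3, against 4272, 6487 and 5955 in wild type. Every mutant library lay below every wild-type library, and the log2 difference was -1.34 ± 0.16 (SE, adjusted p = 7.07e-05 by limma), or 39.5% of wild type. LHCB2.2 held 7855, 6791 and 7674, against 12726, 15997 and 15046 in wild type, a difference of -0.97 ± 0.10 (adjusted p = 1.22e-05 by limma). LHCB2.1 held 9297, 7848 and 9936, against 15616, 17645 and 18011 in wild type, a difference of -0.92 ± 0.09 (adjusted p = 1.21e-05 by limma). The 3 genes for LHCB2, a protein that STN7 phosphorylates, thus lay at 39.5% to 52.7% of wild type, with no overlap between the groups. Of the 24305 genes tested, 12.2% lay lower without overlap in this comparison.

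LHCB1.4 held 18302, 11547 and 19094 in the libraries labelled hag2 msi2 msi3, against 24714, 28243 and 26503 in wild type. The second mutant library was the lowest by far, and the difference was -0.73 ± 0.14 on the log2 scale (adjusted p = 0.00573 by limma). The log2 difference was -0.50 without that library and was called there too.

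LHCB1.3 held 226232, 207918 and 258955 in the libraries labelled hag2 msi2 msi3, against 206216, 226871 and 230017 in wild type. The groups overlapped and the difference was 0.06, with a 95% interval of -0.26 to 0.38 (adjusted p = 0.894 by limma). LHCB1.2 differed by -0.16, with an interval of -0.42 to 0.09. LHCB1.1 differed by -0.33, with an interval of -0.56 to -0.11 (adjusted p = 0.0968 by limma). It turned on 1 library, since without wild-type replicate 1 the difference was -0.48 and the adjusted p 0.00662. LHCB3 held 48428, 50266 and 51477, against 56004, 63520 and 60896 in wild type. Its groups did not overlap, a pattern that 12.2% of genes showed in this direction, yet its difference of -0.26 did not pass (adjusted p = 0.16 by limma).

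The share of the LHCB2 genes in the LHCII values was 4.94% ± 0.246 in the libraries labelled hag2 msi2 msi3, against 8.93% ± 0.367 in wild type, with no overlap between single libraries. With 3 libraries against 3, an exact permutation test cannot go below 0.10, and none is given for a sum over the members.

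**Figure D3:**
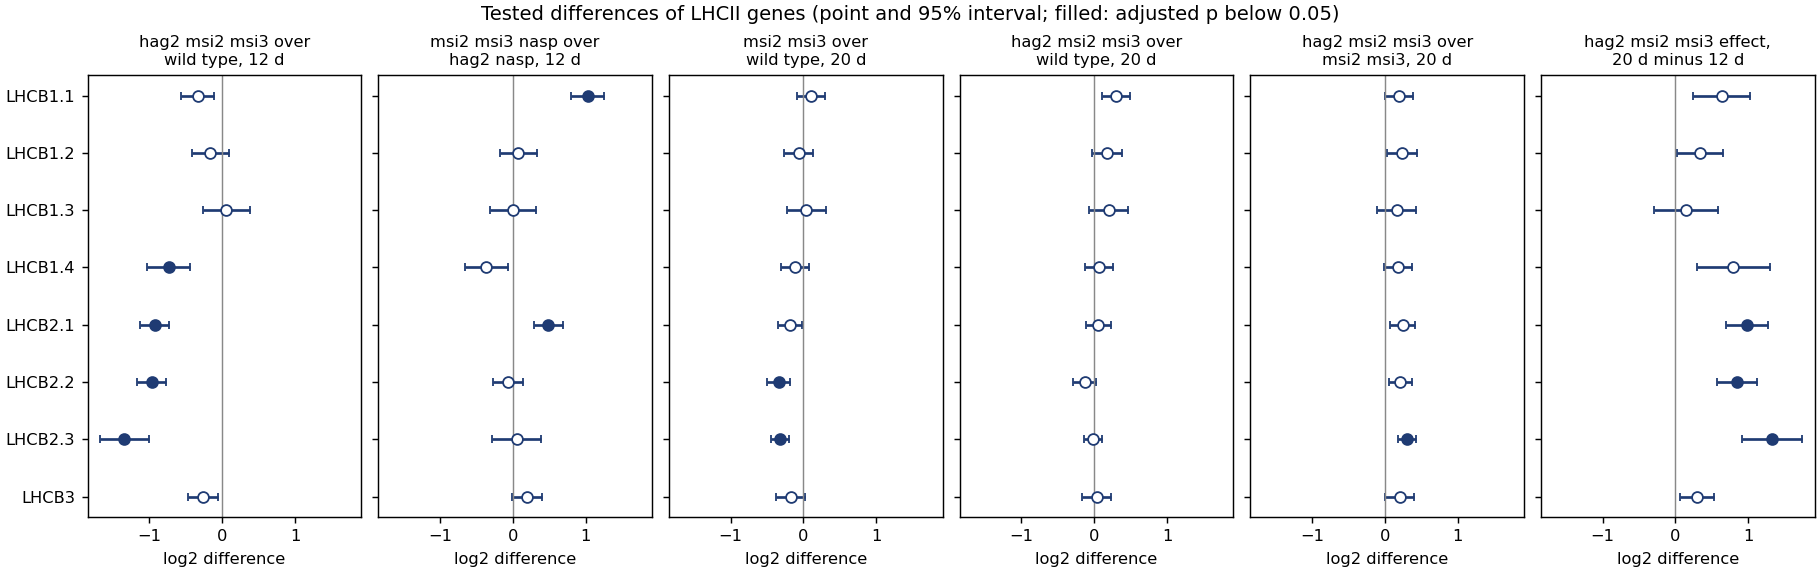
Log2 difference of each LHCII gene in the 6 comparisons whose direction was not used in choosing the members, with 95% intervals and filled points where the adjusted p was below 0.05. In the first panel 7 of the 8 genes lie left of 0, with filled points for the LHCB2 genes and LHCB1.4. The last panel gives the difference of the hag2 msi2 msi3 effect between 20 and 12 days. All 8 genes lie right of 0 there, with filled points for the LHCB2 genes alone.

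Few of the related antenna genes were called in these libraries. Of the 7 minor photosystem II antenna genes, 1 fell, LHCB4.2 (CP29), with 20419 ± 1212 in the libraries labelled hag2 msi2 msi3, against 26866 ± 1327 in wild type (log2 difference -0.40, adjusted p = 0.00589 by limma). None of the 6 photosystem I antenna genes was called, with differences between -0.30 and 0.24. None of the 5 genes for delivery and insertion of LHC proteins was called either, a list that holds the chloroplast signal recognition particle subunits cpSRP54 and cpSRP43 and the insertase ALB3. None of the 4 light-stress relatives was called, which are OHP1, OHP2, ELIP1 and ELIP2. STN7 fell by 0.26 on the log2 scale (adjusted p = 0.0126 by limma), the only one of the 3 LHCII kinase and phosphatase genes to be called. CAO, which makes chlorophyll b, held 1420 ± 102, against 2047 ± 153 in wild type (difference -0.53, adjusted p = 1.62e-04 by limma), and was the only one called of the 7 genes of chlorophyll b and chlorophyll breakdown.

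Of the 15 listed regulators of LHCB transcription, 6 fell and none rose. CCA1, which binds LHCB1 promoters in the morning phase of the clock, averaged 43.1 ± 5.34 in the libraries labelled hag2 msi2 msi3, against 351 ± 122 in wild type (log2 difference -2.94 ± 0.19, adjusted p = 5.16e-08 by limma). Its partner LHY averaged 22.8 ± 10.51, against 33.3 ± 0.983 in wild type, and did not pass (adjusted p = 0.215 by limma). GLK2, an activator of chloroplast genes, averaged 907 ± 58.1, against 1455 ± 80.8 in wild type (difference -0.68, adjusted p = 4.20e-05 by limma). GLK1 averaged 4332 ± 154, against 5220 ± 148 in wild type (difference -0.27, adjusted p = 0.0361 by limma). PIF4, PIF5 and CRY1 were the other 3 that fell, by 0.42, 0.47 and 0.29 on the log2 scale. The wild-type libraries ranged from 216 to 451 for CCA1, whose transcript is known to change through the day.

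Of the leaf mesophyll markers, 3 rose in the same libraries. The list summed to 710010 to 835940 in the libraries labelled hag2 msi2 msi3, against 589800 to 647280 in wild type. The 3 of 11 that rose were the Rubisco small-subunit genes RBCS1B, RBCS2B and RBCS3B, by 0.57, 0.59 and 0.43 on the log2 scale, and none fell. RBCS3B averaged 80354 ± 4975, against 59800 ± 2242 in wild type. None of the 16 root markers was called, and they summed to 3731 to 4449, against 3671 to 3887 in wild type. The other 8 markers did not pass, and RBCS1A, which carried much of the sum, averaged 368441 ± 43603, against 296488 ± 22106 in wild type (adjusted p = 0.368 by limma). The part of the regulators and of leaf make-up in the LHCII values was not tested.

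**Figure D4:**
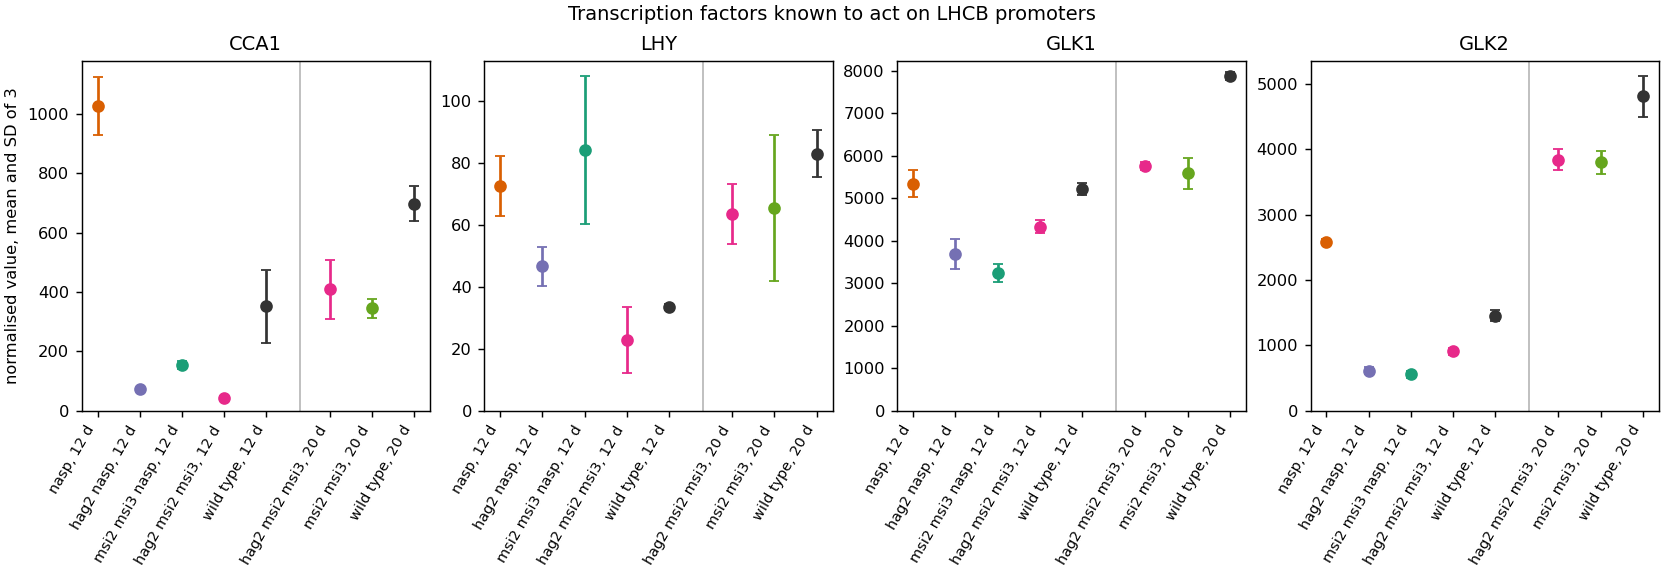
Normalised values of 4 transcription factors known to act on LHCB promoters, as the mean and SD of 3 libraries in each group at 12 and 20 days. CCA1 and GLK2 are highest in nasp among the 12-day groups, and both lie below wild type in the libraries labelled hag2 msi2 msi3 (43.1 against 351 for CCA1, and 907 against 1455 for GLK2).

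The 2 nasp combinations were then compared with each other, since the members had been chosen as lower in both. Both groups took part in that choice, and only the direction between them did not. Of the 8 members 2 were higher in msi2 msi3 nasp than in hag2 nasp, and none was lower, against 6.33% of all genes called and 3.26% called higher. LHCB1.1 held 2825, 2972 and 3055 in msi2 msi3 nasp, against 1543, 1370 and 1425 in hag2 nasp, a log2 difference of 1.03 ± 0.11 (adjusted p = 1.55e-05 by limma). LHCB2.1 held 4444, 5117 and 4293 in msi2 msi3 nasp, against 3396, 3466 and 2999 in hag2 nasp, a difference of 0.49 ± 0.09 (adjusted p = 0.00354 by limma). In both the groups did not overlap, a pattern that 10.8% of genes showed in this direction. Neither was called once near-identical copies were summed into 1 feature, which gave 0.03 for LHCB1.1 to LHCB1.3 (adjusted p = 0.947 by limma) and 0.27 for LHCB2.1 with LHCB2.2 (adjusted p = 0.109 by limma).

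The other 6 members did not pass the test between the combinations. LHCB1.3 differed by 0.00 with a 95% interval of -0.32 to 0.32, LHCB2.2 by -0.06 (-0.27 to 0.14) and LHCB2.3 by 0.05 (-0.28 to 0.39). LHCB1.4 stood lower in msi2 msi3 nasp, at 3824, 4005 and 4659, against 5881, 5265 and 4880 in hag2 nasp, without overlap (10.1% of genes in this direction) but also without a call (difference -0.36, adjusted p = 0.144 by limma). Leaf mesophyll markers were higher in msi2 msi3 nasp for 5 of 11 genes, among them CA1 and RBCS2B, and lower for none. CCA1 averaged 155 ± 13.7 in msi2 msi3 nasp, against 74.6 ± 2.32 in hag2 nasp (difference 1.04, adjusted p = 0.0024 by limma), and CAO was higher by 0.50 (adjusted p = 2.11e-04 by limma). None of the 7 minor photosystem II or 6 photosystem I antenna genes was called.

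Against wild type, 66.3% of all genes were called in hag2 nasp and 66.8% in the msi2 msi3 nasp libraries. A call there was the common case, also for the related lists. All 6 photosystem I antenna genes were lower in both combinations, with medians of -1.63 for hag2 nasp and -1.58 for msi2 msi3 nasp. LHCA1 averaged 21491 ± 1084 in hag2 nasp and 21872 ± 2475 in the msi2 msi3 nasp libraries, against 74807 ± 3139 in wild type. Of the 7 minor photosystem II antenna genes, 6 were lower in hag2 nasp and 5 in the msi2 msi3 nasp libraries, and LHCB4.3 was higher in both. It averaged 518 ± 27.3 in hag2 nasp and 524 ± 61.1 in the msi2 msi3 nasp libraries, against 323 ± 47.1 in wild type. In nasp LHCB4.3 was lower, at 200 ± 50.7 (adjusted p = 0.0122 by limma), opposite to the 8 LHCII members there as well. All 3 LHCII kinase and phosphatase genes fell in both combinations.

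The 7 genes of chlorophyll b and chlorophyll breakdown split in the combinations, with 4 called higher and 3 lower in each. SGR1, which starts the removal of magnesium from chlorophyll a, averaged 988 ± 129 in hag2 nasp and 966 ± 70.9 in the msi2 msi3 nasp libraries, against 392 ± 31.8 in wild type. PAO, which opens the chlorophyll ring, averaged 4041 ± 159 in hag2 nasp and 3888 ± 189 in the msi2 msi3 nasp libraries, against 2280 ± 61.9 in wild type. NYC1, a chlorophyll b reductase, and PPH were called higher in both as well, while CAO, NOL and HCAR were called lower. In nasp NYC1 was lower, at 2501 ± 87.4, against 5035 ± 522 in wild type (log2 difference -1.005, adjusted p = 2.96e-07 by limma), and CAO was higher, at 3605 ± 163, against 2047 ± 153 in wild type (difference 0.82, adjusted p = 1.09e-06 by limma).

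The regulators did not all follow the antenna genes. GLK2 averaged 2588 ± 34.2 in nasp libraries, 613 ± 53.8 in those of hag2 nasp and 554 ± 58.7 in those of msi2 msi3 nasp, against 1455 ± 80.8 in wild type, and CCA1 averaged 1028 ± 97.0 in nasp libraries, 74.6 ± 2.32 in those of hag2 nasp and 155 ± 13.7 in those of msi2 msi3 nasp, against 351 ± 122 in wild type. Both were called in the direction of the LHCII genes in all 3 genotypes. LHY was called higher in nasp and in msi2 msi3 nasp, where it averaged 84.1 ± 23.9, against 33.3 ± 0.983 in wild type. HY5, which activates light-induced genes, was called higher in both combinations. In all, 5 of the 15 regulators were higher and none lower in nasp, where 3.89% of all genes were called. In hag2 nasp 3 were higher, 8 lower and 4 not called, and with msi2 msi3 nasp 4 were higher, 9 lower and 2 not called. Of all genes, 66.3% and 66.8% were called there.

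At 20 days the LHCII genes made up 5.30% ± 0.413 of all values in the libraries labelled hag2 msi2 msi3 and 4.82% ± 0.238 in msi2 msi3, against 4.81% ± 0.0851 in wild type. LHCB1.3 was the highest gene of the table in all 9 libraries. In msi2 msi3, 2 of the 8 members fell and none rose, against 7.6% of genes called and 4.15% called lower among 23707 tested. In the libraries labelled hag2 msi2 msi3 limma called 0 of 8 at an adjusted p below 0.05, against 4.29% of genes.

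LHCB2.3 held 25667, 26087 and 27554 in msi2 msi3, against 32934, 33397 and 32539 in wild type. The groups did not overlap, a pattern that 13.9% of genes showed in this direction, and the log2 difference was -0.32 ± 0.06 (adjusted p = 0.0037 by limma). LHCB2.2 held 86276, 78047 and 86200 in msi2 msi3, against 105814, 103917 and 106884 in wild type, a difference of -0.34 ± 0.07 (adjusted p = 0.0112 by limma). Without msi2 msi3 replicate 2 its difference was -0.29 and the adjusted p 0.0675, and summed with LHCB2.1 it was -0.26 and 0.0894. LHCB2.1 held 106759, 100015 and 110474, against 117912, 122844 and 120385 in wild type, without overlap but also without a call (difference -0.19, adjusted p = 0.174 by limma). The 4 LHCB1 genes differed by between -0.12 and 0.10 and LHCB3 by -0.17, and none of these passed.

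In the libraries labelled hag2 msi2 msi3 the 4 LHCB1 genes had point estimates above 0 at this age, between 0.06 and 0.30, and none passed the test. LHCB1.1 held 297526, 344074 and 320541, against 257588, 265247 and 257478 in wild type. The groups did not overlap, a pattern that 12.3% of genes showed in this direction, and the difference was 0.30 with an interval of 0.11 to 0.49 (adjusted p = 0.0827 by limma). It was called without the lowest of the mutant libraries, replicate 1 (difference 0.35, adjusted p = 0.0427 by limma). LHCB2.3 held 31495, 32733 and 33695, against 32934, 33397 and 32539 in wild type, a difference of -0.01 with an interval of -0.14 to 0.11. LHCB2.1 differed by 0.06 (-0.11 to 0.23) and LHCB2.2 by -0.13 (-0.29 to 0.03). The interval of LHCB1.1 was the only one of the 8 to lie off 0, and without adjustment 4184 of the 23707 genes had a p below 0.05.

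**Figure D5:**
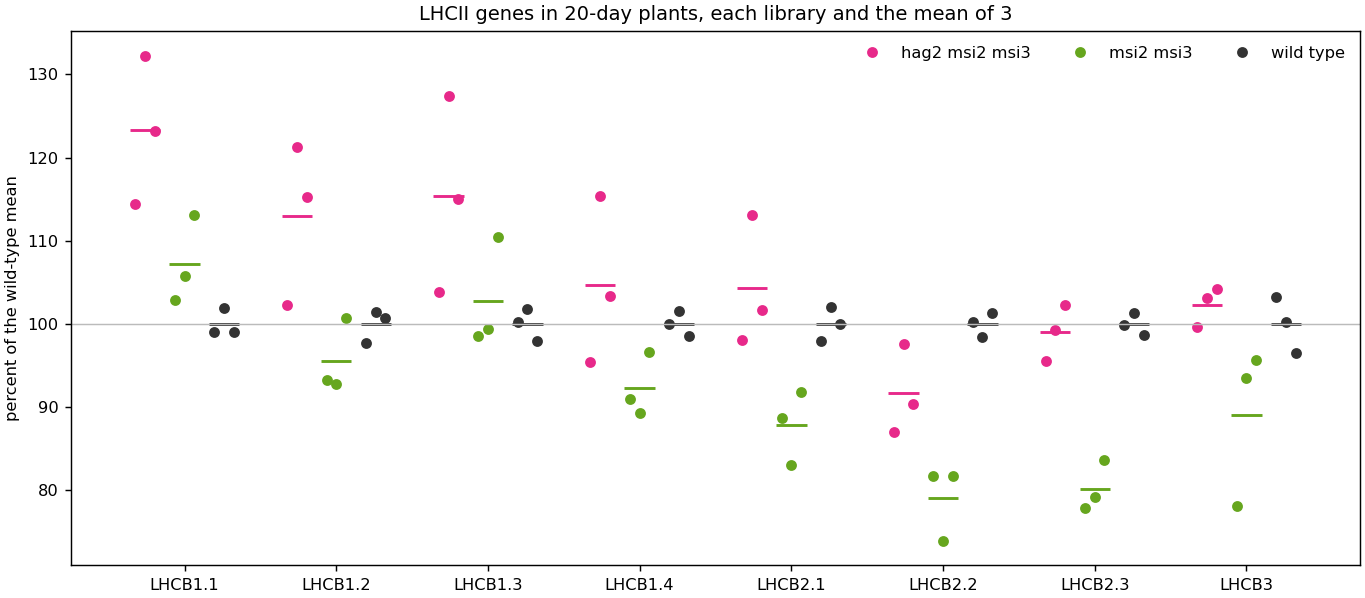
Values of the 8 measured LHCII genes in the 20-day libraries as a percent of the wild-type mean of each gene, with 3 points for the libraries of a group and a line for their mean. The msi2 msi3 libraries lie below wild type for LHCB2.2 (79.1%) and LHCB2.3 (80.2%), and the libraries labelled hag2 msi2 msi3 lie above it for LHCB1.1 (123%).

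Set against each other, the libraries labelled hag2 msi2 msi3 and msi2 msi3 differed in 1 member, LHCB2.3, against 1.19% of genes called and 1.02% called higher. Its difference was 0.30 ± 0.06 (adjusted p = 0.021 by limma), with no overlap between groups (9.46% of genes in this direction). This call ended under total scaling (adjusted p = 0.0635), quantile normalization (0.11), limma without trend (0.117), a fit of the 2 groups alone (0.0662), and without hag2 msi2 msi3 replicate 3 (0.133) or msi2 msi3 replicate 1 (0.0585) or 2 (0.107), all by limma. All 8 point estimates were above 0, between 0.16 and 0.30. The libraries labelled hag2 msi2 msi3 also had the higher MSI2 level of these 2 groups, 1359 ± 40.0 against 764 ± 77.4 in msi2 msi3. The labels of the groups differ in hag2 as well, and the part of either gene in the LHCII values was not tested.

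Regulators at 20 days showed GLK1 at 5764 ± 98.5 in the libraries labelled hag2 msi2 msi3 and 5586 ± 372 in msi2 msi3, against 7878 ± 101.2 in wild type, which fell in both (differences -0.45 and -0.50, adjusted p = 4.18e-04 and 1.14e-04 by limma). GLK2 and CCA1 fell in both as well, CCA1 to 410 ± 99.5 and 345 ± 32.8, against 698 ± 60.1 in wild type. In all, 4 of the 15 fell in the libraries labelled hag2 msi2 msi3 and 6 in msi2 msi3, and 1, the photoreceptor gene PHYA, rose in each. The part of GLK1, GLK2 and CCA1 in the LHCII values at this age was not tested. No leaf mesophyll marker was called in either group. Only 11 of the 16 root markers could be tested at this age, and 1 was called, lower in msi2 msi3. In wild type 4 of the 16 were at 0 in all libraries, and 6 averaged under 1. In msi2 msi3 these numbers were 4 and 7, and under the label hag2 msi2 msi3 they were 2 and 3. The root markers thus checked organ make-up only in part at 20 days.

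The effect in the libraries labelled hag2 msi2 msi3 could be compared between ages, as the difference of their log2 differences from the wild type of the same table. Of the 8 members 3 differed, LHCB2.1, LHCB2.2 and LHCB2.3, against 0.625% of the 25134 genes tested and 0.517% called higher at 20 days. The 12-day wild-type libraries in this comparison also took part in choosing the members. The effect on LHCB2.3 was -0.01 at 20 days and -1.34 at 12 days, a difference of 1.33 ± 0.19 (adjusted p = 0.0122 by limma). For LHCB2.1 the difference was 0.98 ± 0.13 (adjusted p = 0.00927 by limma) and for LHCB2.2 it was 0.84 ± 0.12 (adjusted p = 0.0143 by limma). That of LHCB2.2 lost its call without wild-type replicate 3 of the 12-day table (adjusted p = 0.0555 by limma). LHCB1.4 differed by 0.79, with an interval of 0.293 to 1.296, and did not pass (adjusted p = 0.176 by limma), and LHCB1.1 (0.63) passed only without wild-type replicate 1 of the 12-day table (adjusted p = 0.0402 by limma). CCA1 (2.14, adjusted p = 0.0283 by limma) and CAO (0.57, adjusted p = 0.0262 by limma) differed in the same direction. Age, medium and the kind of sequencing differ together between the tables and cannot be told apart. Some root markers were at 0 in all libraries of a 20-day group, and none in those of a 12-day group. The root content of the samples may thus differ too, and its part was not tested.

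The members varied together within groups as well. With group means removed, the 28 pairs of members had a median Pearson r of 0.61 over the 15 libraries at 12 days, from 0.12 for LHCB1.4 with LHCB3 to 0.96 for LHCB1.2 with LHCB1.3, and of 0.73 over the 9 libraries at 20 days, from -0.21 for LHCB2.2 with LHCB3 to 0.98 for LHCB1.1 with LHCB1.3. Libraries share their depth and normalisation and near-identical members may share reads, so these values are a description.

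Outside the set, the gene whose values over the 15 libraries at 12 days were most like the mean of the z-scored members was PKS2, a phytochrome kinase substrate (r = 0.9962, among 15495 genes with a mean of at least 100). It averaged 1311 in nasp libraries, 119 in those of hag2 nasp, 121 in those of msi2 msi3 nasp and 523 in the libraries labelled hag2 msi2 msi3, against 785 in wild type. LHCA4, of the photosystem I antenna, was next (0.9954), and then FRO6, a ferric reductase (0.995), AT2G42220 (0.9938), AT3G23080 (0.9937), LHCB4.2 (0.9936), CP5 (0.9934) and AT1G73750 (0.993). FRO6 averaged 4401 in nasp libraries, 177 in those of hag2 nasp, 238 in those of msi2 msi3 nasp and 1417 in the libraries labelled hag2 msi2 msi3, against 1979 in wild type. At 20 days the 4 most alike over 9 libraries were AT2G41410 (0.9865), the ascorbate peroxidase APX1 (0.9822), the fatty acid desaturase FAD5 (0.9763) and AT1G21370 (0.9726), and none of the 8 genes named at 12 days was among them. A high r over these libraries mostly reflects group means.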

How the data were processed

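RNA-seq values came from 24 libraries of Arabidopsis seedlings, read over 50 bases from one end (12 days) or 150 bases from both ends (20 days), per the labels' protocols. The deposited tables hold signal, gene-level normalised read values, which in units of 1e6 sum to 19.6 to 21.0 per library at 12 days and 45.7 to 48.2 at 20 days. The submitters' processing notes name HISAT2, edgeR, bcl2fastq and TAIR10; the read counter, annotation, strand and versions are not given in the sources used here. Read counts were not recovered, so the depth behind a value is unknown and no counting interval is given. At 20 days, 72771 entries that hold a rounding residue in place of 0 were read as 0.

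Values were taken as log2(value + 1), and a gene was tested where 3 or more libraries reached 1. Fold changes on this scale understate those of low genes. limma 3.58.1 (lmFit, eBayes with trend, R 4.3.3) took the groups of each age in a single model, after it was tested on simulated data, and p-values were Benjamini-Hochberg adjusted over all genes (threshold 0.05). The age difference came from 1 model over the 12 libraries of wild type and hag2 msi2 msi3. Tests were two-sided. Intervals are 95% from the fit. Levels per kilobase divide by the TAIR10.1 transcript length, which is not a correction the authors made.

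The members and all gene lists were chosen with earlier results of these data known. Named beside the members are the 4 NuB4 genes, genes among the 4 most abundant of a list at 12 days, any listed regulator, and the most alike genes; LHCB4.3, SGR1, NOL, HCAR, RBCS1B and RBCS2B were named after their values were seen. Promoters and positions were read from the RefSeq TAIR10.1 genome with Biopython 1.88 (Python 3.11.15). Alternatives were other pseudocounts (0.5 and 5), no filter, total scaling, quantile normalization, no trend, the compared groups only, the replicate number as a block, summed copies, and leaving out each library.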

Additional observations from a re-analysis of the deposited data

Results flagged for a closer look

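Differences between ages flagged 3 members, each by the interaction test. The effect in the libraries labelled hag2 msi2 msi3 against wild type was higher at 20 than at 12 days by 0.983 on the log2 scale for LHCB2.1 (adjusted p = 0.00927 by limma), by 0.841 for LHCB2.2 (adjusted p = 0.0143 by limma) and by 1.33 for LHCB2.3 (adjusted p = 0.0122 by limma). At 12 days all 3 mutant libraries lay below all 3 wild-type libraries for each of the 3 genes, a pattern that 12.2% of all genes showed, and at 20 days they did so for LHCB2.2 alone, against 11.1% of all genes.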

How the results depend on the processing

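The 4 calls in the libraries labelled hag2 msi2 msi3 at 12 days held under every alternative run, with 4 to 5 members called when single libraries were left out. The single call at 20 days for hag2 msi2 msi3 against msi2 msi3 became 0 under total scaling, quantile normalization, limma without trend and a fit of both groups alone, and 0 to 1 without single libraries. Summing near-identical copies left 0 of 2 calls between msi2 msi3 nasp and hag2 nasp and 1 of 2 between msi2 msi3 and wild type. The sum that holds LHCB1.1 is mostly LHCB1.3, so it cannot decide on LHCB1.1 alone. Without single libraries 1 to 2 members were called in msi2 msi3 and 0 to 1 in hag2 msi2 msi3 against wild type at 20 days, and 2 to 4 differed between ages. The cause of these changes was not tested.

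With the replicate block, 0 of the 3 age differences were called (LHCB2.1 adjusted p = 0.0713, LHCB2.2 0.13 and LHCB2.3 0.121 by limma), and 28 in place of 157 of all genes. Same-numbered libraries did not vary together (r from -0.056 to 0.096 over 30 pairs at 12 days and from -0.033 to 0.052 over 9 pairs at 20 days), so the numbers do not pair them. The block changed no other member's call.

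The median log2 differences that were only described moved with summed copies, to -2.631 (hag2 nasp against nasp), -2.052 (hag2 nasp against wild type), -2.61 (msi2 msi3 nasp against nasp), -1.88 (msi2 msi3 nasp against wild type) and 0.5785 (nasp against wild type), and with quantile normalization to -2.977 (hag2 nasp against nasp), -2.922 (msi2 msi3 nasp against nasp) and 0.6371 (nasp against wild type).

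Only members that had not passed the test changed sign. With summed copies these were LHCB1.2 in msi2 msi3 against wild type (0.0279), LHCB1.3 in hag2 msi2 msi3 at 12 days (-0.0016), LHCB2.1 in hag2 msi2 msi3 at 20 days (-0.0255) and LHCB2.2 between the nasp combinations (0.2739). With quantile normalization they were LHCB1.2 (-0.0236) and LHCB1.4 (-0.0379) in hag2 msi2 msi3 against msi2 msi3, LHCB1.2 (0.0387), LHCB1.4 (0.0791) and LHCB3 (0.0188) in msi2 msi3 against wild type, and LHCB1.2 between the combinations (-0.0599). Leaving out single libraries gave LHCB1.3 -0.0257 to 0.1327 in hag2 msi2 msi3 at 12 days; at 20 days it gave that group -0.0375 to 0.0112 for LHCB2.3, -0.0096 to 0.1274 for LHCB1.4 and -0.0018 to 0.1008 for LHCB2.1, and msi2 msi3 -0.0146 to 0.0673 for LHCB1.3. Between the combinations it gave -0.1003 to 0.1142 for LHCB1.3, -0.1392 to 0.2231 for LHCB2.3 and -0.0332 to 0.2328 for LHCB1.2.

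Counts over all genes depended more on the fit. Without trend they were 553 in place of 982 (hag2 msi2 msi3, 12 days), 956 in place of 1539 (msi2 msi3 nasp against hag2 nasp), 1022 in place of 1802 (msi2 msi3, 20 days), 509 in place of 1017 (hag2 msi2 msi3, 20 days), 59 in place of 281 (hag2 msi2 msi3 against msi2 msi3) and 580 in place of 945 (nasp). With the compared groups alone they were 814 (msi2 msi3 nasp against hag2 nasp) and 177 (hag2 msi2 msi3 against msi2 msi3). Without single libraries they ranged from 441 to 751 for hag2 msi2 msi3 at 12 days and 571 to 1308 at 20 days, 104 to 324 for hag2 msi2 msi3 against msi2 msi3, 61 to 245 for the age difference, 911 to 1861 for msi2 msi3 nasp against hag2 nasp, 519 to 721 for nasp and 1078 to 1351 for msi2 msi3, where 3 libraries a group and unknown depth limit what can be called.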
